A study of Mus musculus with 5 samples.

Results

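Amino acid transporter genes were described here in cultured mouse epidermal stem cells with and without Angptl4. The members are all genes of the deposited table whose symbol begins with Slc1a, Slc3a, Slc7a, Slc36a, Slc38a or Slc43a and a number. This rule goes by name, but it was set with earlier results of these data known. There were 40 of 17657 genes, and 31 of them passed the filter on low counts and were tested, among 12957 tested genes in all. Of the 40, Slc7a6os is the opposite-strand neighbour of Slc7a6 and no transporter, and Slc43a3 is a family member that carries purine nucleobases.

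Cells take up and exchange amino acids through membrane carriers that differ in substrate, in the ion they are coupled to and in the membrane they sit in. Sodium-coupled carriers of the Slc1 and Slc38 families concentrate glutamate, glutamine and small neutral amino acids. The Slc7 exchangers, several of which reach the surface only bound to the Slc3a2 heavy chain, then trade these for leucine and other essential amino acids, for cationic amino acids or for cystine. Carriers of the lysosome return amino acids from degraded protein to the cytosol, and some of them report amino acid supply to mTORC1, a kinase complex that controls growth. In many tissues transcription of these genes is raised by ATF4, a factor made when amino acids run short or unfolded protein accumulates.

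Epidermal stem cells, which renew the keratinocytes of the skin, were taken from wild-type mice (WT, 3 libraries) and from mice lacking Angptl4 (KO, 2 libraries), and their RNA was sequenced. Angptl4 is a secreted protein best known for inhibiting lipoprotein lipase. All mice were male C57BL/6 labelled 8 weeks. The cells were cultured in KGM2, a keratinocyte growth medium, so the values describe cells in culture and not in skin. Whether libraries of 1 genotype stem from different mice or cultures is not in the labels, so a p-value here measures the spread between libraries only, which may be technical.

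The libraries held 20283084 to 20773407 expected counts each. Levels are given in CPM, counts scaled to a common library size. Angptl4 itself was measured at 4.12 to 6.96 CPM in WT and at 0.832 and 1.06 CPM in KO (log2 difference -2.56, adjusted p = 0.00458, edgeR quasi-likelihood test). The KO libraries differed from each other far more than the WT libraries did, with a biological coefficient of variation of 28.9% against 5.22%. KO1 and KO2 are therefore given separately throughout. Summed CPM of 12 keratinocyte markers was 47961 to 48730 in WT, 62865 in KO1 and 49423 in KO2, led by Krt5 and Krt14, which did not pass the test. Of these 12, 4 were higher (Cdh1, Cdh3, Itgb4 and Krt15) and 2 lower in KO, the basal integrin Itga6 (-0.91, adjusted p = 0.00413) and the keratinocyte stem cell factor Trp63 (-0.73, adjusted p = 0.00517). Markers of other cells differed too. The summed level of 9 pericyte and smooth muscle markers was 346 to 394 CPM in WT, 2169 in KO1 and 903 in KO2, with 5 of 6 tested members higher in KO. Most of that sum was Acta2, at 230 to 262 CPM in WT, 1745 in KO1 and 581 in KO2. Rgs5 and Des stayed at or below 0.147 CPM. Summed fibroblast markers, mostly Fn1 and Fbln2, were at 779 to 825 CPM in WT, 1604 in KO1 and 748 in KO2, with 4 of 11 tested members higher. Over all tested genes, 20.4% were higher and 20.4% lower in KO. Schwann cell markers, nearly all Mbp, summed to 109 to 113 CPM in WT, 59.7 in KO1 and 83.2 in KO2, with Mbp lower. Immune markers, mostly Cd68, summed to 25.6 to 31.1, 42.1 and 35.9 CPM, with Cd68 higher. Ptprc, Cd3e and Adgre1 stayed at or below 0.146 CPM. Endothelial markers summed to 12.5 to 13.9, 9.79 and 11.8 CPM, with Kdr lower and Tie1 higher. The deposited table held 9 of 10 immune and 4 of 5 adipocyte markers. No marker in it was at 0 in all libraries, though Cd3e had 1 count in KO1 alone and Retn 1 count in WT3 alone. The part of such cells in the values below was not tested. In bulk RNA, a change in the number of cells of a kind and a change in RNA per cell cannot be told apart.

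Of the 31 tested members, 7 were higher in KO, 3 were lower and 21 did not pass the test. The higher genes were Slc43a2, Slc3a1, Slc38a7, Slc38a9, Slc36a1, Slc36a4 and Slc38a6, and the lower genes were Slc38a1, Slc38a4 and Slc1a1. The called share of the members was 32.3%, against a background of 40.8% of all tested genes (edgeR, adjusted p under 0.05). Higher members made up 22.6% against 20.4% of all genes, and lower members 9.68% against 20.4%. KO and WT libraries were without overlap for 19 of 31 members (61.3%), against 66.4% of all genes. The called, higher and non-overlapping shares were near the background and are no result about the members, and the lower share rests on 3 genes. The median log2 difference of the members was 0.23, and over all tested genes it was 0.02.

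In 19 of 31 members both KO libraries lay on the same side of WT. In 5 of 31 members (16.1%) KO1 lay below every WT library and KO2 above every WT library, which occurred in 6.58% of all genes, and no member showed the opposite order. They were Slc3a2, Slc7a5, Slc38a2, the nucleobase carrier Slc43a3 and Slc7a11. In Slc7a11 KO2 barely exceeded the highest WT library (51.3 against 51.2 CPM). KO2 exceeded KO1 in 21 of 31 members (67.7%), against 50.2% of all genes. The median log2 ratio of the members to the WT mean was -0.28 in KO1 and 0.34 in KO2, while over all tested genes it was -0.02 and 0.01. In the plot of CPM by library, Slc3a2, Slc7a5 and Slc38a2 have WT points on top of one another and KO points on either side. Only 2 libraries stand behind this order, and it was not tested.

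**Figure D1:**
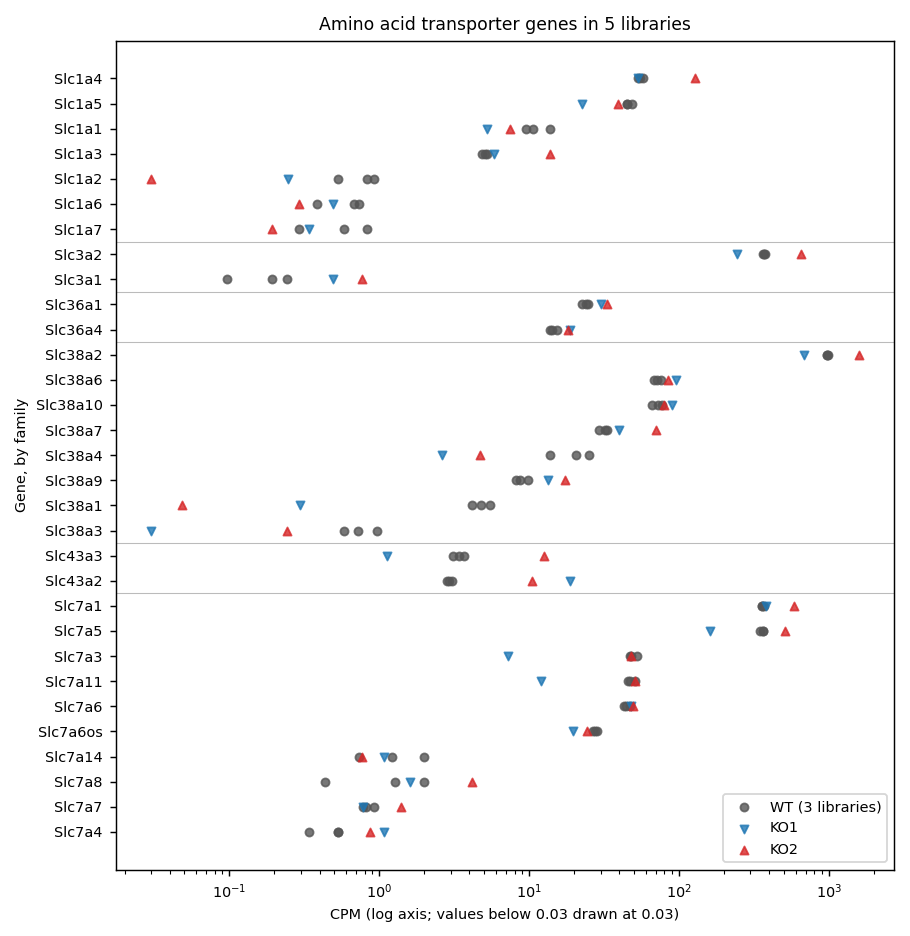
CPM of the 31 tested members in each library on a log axis, grouped by family, with grey circles for the 3 WT libraries, blue triangles for KO1 and red triangles for KO2; values below 0.03 are drawn at 0.03. Slc38a2, the most abundant gene, sits at 975 to 995 CPM in WT, at 683 in KO1 and at 1591 in KO2.

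Slc3a2, the CD98 heavy chain that brings Slc7 light chains to the cell surface, was among the most abundant members. It was measured at 366, 378 and 368 CPM across WT1, WT2 and WT3, against 244 and 656 CPM in KO1 and KO2. KO1 was below and KO2 above the whole WT range, and the fitted log2 difference of 0.28 (SE 0.39) did not pass the test (adjusted p = 0.593). With KO1 left out it was 0.82, and with KO2 left out it was -0.59, so the KO libraries lay on opposite sides of WT. In such fits, here and below, the lone KO library is assumed to vary like the WT libraries. The KO libraries varied far more, so p-values and calls from these fits do not measure the spread of KO. Slc7a5 (LAT1), the light chain that brings leucine and other large neutral amino acids into growing cells, had the same order. Its levels were 347, 362 and 363 CPM in WT, 162 in KO1 and 509 in KO2. The fitted difference was -0.09 (SE 0.45, adjusted p = 0.885), and it was 0.50 without KO1 and -1.13 without KO2. Slc7a8 (LAT2), a second light chain for neutral amino acids, was scarce, at 0.435 to 1.99 CPM in WT and 1.61 and 4.15 CPM in KO1 and KO2. It did not pass (1.23, SE 0.67, adjusted p = 0.193), and the difference was 1.74 without KO1.

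Slc43a2 (LAT4), a facilitative carrier that lets branched chain amino acids, phenylalanine and methionine move down their gradient without exchange, had the largest rise in log2 units among the members. It was measured at 2.82, 3.05 and 2.91 CPM for WT1, WT2 and WT3 and 18.9 and 10.4 CPM for KO1 and KO2. Both KO libraries lay well above the narrow WT range, and here KO1 was the higher of the pair. The mean rose from 2.93 ± 0.112 CPM (SD, n = 3) to 14.7 ± 6.04 CPM (SD, n = 2), a log2 difference of 2.32 (SE 0.28, adjusted p = 0.00413) or 5.00-fold, with a counting interval of 4.23 to 5.94 (95%, counting error only). The gene lies on chromosome 11, 75529915 to 75577575 (GRCm38.p6, as deposited), and a non-coding antisense gene overlaps it. It passed the test in all 16 alternative analyses. Its relative Slc43a1 (LAT3) was not tested and reached at most 0.84 TPM (a scale of transcript numbers that corrects for gene length). Slc36a4 (PAT4), a high-affinity carrier of proline and tryptophan, rose slightly. Its values were 14.2, 13.8 and 15.3 CPM in WT and 18.8 and 18.3 CPM in KO, with a log2 difference of 0.36 (SE 0.09, adjusted p = 0.0314). The groups did not overlap, and with WT1, WT2 or WT3 left out the adjusted p was 0.0799 to 0.13. The gene passed in 8 of 16 alternatives, failing also with a separate spread per group, a block by replicate number and every log2(TPM) fit.

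Slc3a1 (rBAT), the other heavy chain, best known from kidney and gut, was called higher from very few reads. It was measured at 0.244, 0.0967 and 0.194 CPM in WT and 0.489 and 0.773 CPM in KO, or 11 counts in all WT libraries together and 26 in the KO libraries. The groups did not overlap, and the log2 difference was 1.79 (SE 0.49, adjusted p = 0.0348), with a ratio of 3.55 (95% counting interval 1.70 to 7.97). The end of Slc3a1 overlaps Prepl on the opposite strand, which is itself higher in KO (0.65, adjusted p = 0.00567) at 21.6 to 22.7 CPM in WT and 36.8 and 32.7 CPM in KO. The sources used here do not give whether the counting kept strands apart, so reads of the overlapping stretch cannot be assigned with certainty. The call held in 6 of 14 alternatives. It was lost without WT1, WT2, WT3 or KO2 and with DESeq2 (adjusted p = 0.0746). A separate spread per group, a fit without the count filter and a block by replicate number also lost it.

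The system A carriers, Slc38a1, Slc38a2 and Slc38a4, take up glutamine, alanine and other small neutral amino acids with sodium, and they lie side by side on chromosome 15 between 96571418 and 97107242. No other gene of the table lies between them. Slc38a1 (SNAT1) was measured at 4.19, 4.79 and 5.48 CPM in WT1, WT2 and WT3, while KO1 and KO2 had 0.294 and 0.0483 CPM. Both KO libraries were near 0, with 7 counts against 298 in WT. The log2 difference was -4.77 (SE 0.53, adjusted p = 0.00376), the steepest fall among the members, and summed counts scaled to library size and number were 28.3-fold lower in KO (95% counting interval 13.6 to 70.9). Slc38a4 (SNAT4) was measured at 20.6, 13.8 and 25.2 CPM in WT and at 2.64 and 4.73 CPM in KO. It spread widely within WT, yet the groups did not overlap, and the log2 difference was -2.42 (SE 0.37, adjusted p = 0.00727). Slc38a1 passed in the 15 alternatives that tested it, and Slc38a4 in 15 of 16, losing its call with a separate spread for each group (adjusted p = 0.152).

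Slc38a2 (SNAT2), between these neighbours on the chromosome, did not follow them. This carrier, which is induced when amino acids are short, had the highest TPM of the members. Its levels were 980, 995 and 975 CPM in WT1, WT2 and WT3, 683 CPM in KO1 but 1591 CPM in KO2. The WT libraries were close together, KO1 below and KO2 above them, and the fitted difference was 0.21 (SE 0.34, adjusted p = 0.648). Without KO1 it was 0.69 and without KO2 -0.51. Of 16 other tested genes within 1 Mb of the cluster, 5 were higher and 5 lower in KO, 31.2% each against 20.4% of all tested genes. KO and WT libraries did not overlap for 15 of them (93.8%), against 66.4% of all genes. The group is small, and the region was not tested. The system N carriers, which move glutamine, histidine and asparagine, were scarce. Slc38a3 (SNAT3) had 47 counts in WT and 5 in KO (ratio WT to KO 6.25, 95% counting interval 2.5 to 20.2) and did not pass (log2 difference -2.59, SE 0.86, adjusted p = 0.0602). It did pass with DESeq2 (adjusted p = 0.0339) and with limma-voom (0.0443). Slc38a5 (SNAT5) was not tested and reached at most 0.05 TPM.

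Carriers placed at the lysosome by their known roles were higher in KO in 3 of 4 cases, beside 20.4% of all tested genes, a group too small to set apart. Slc38a9, which senses lysosomal arginine and leucine efflux for mTORC1, was measured at 9.89, 8.75 and 8.20 CPM across WT1, WT2 and WT3, against 13.3 and 17.4 CPM in KO1 and KO2. The groups were apart, with a log2 difference of 0.78 (SE 0.16, adjusted p = 0.0166). Slc38a7 (SNAT7), which exports glutamine and asparagine from lysosomes, was at 31.9, 33.3 and 29.4 CPM in WT and 39.9 and 70.3 CPM in KO. Both KO libraries exceeded WT, KO2 by much more than KO1, with a log2 difference of 0.81 (SE 0.24, adjusted p = 0.0442). Slc36a1 (PAT1), a proton-coupled exporter of small neutral amino acids, was at 24.1, 24.8 and 22.7 CPM in WT and 30.1 and 32.9 CPM in KO, a smaller rise with no overlap (0.40, SE 0.09, adjusted p = 0.0199). Slc7a14, a lysosomal relative of the cationic carriers, was at 0.731 to 1.99 CPM in WT and at 1.08 and 0.773 CPM in KO, within the WT range (-0.50, SE 0.49, adjusted p = 0.443). The 3 calls were lost when WT1, WT2 or WT3 was left out (adjusted p 0.0551 to 0.139) and held with either KO library left out, while that of Slc38a7, which passed in 7 of 16 alternatives, was also lost with limma-voom, without the count filter and in all 3 log2(TPM) fits (adjusted p 0.0526 to 0.0666), and that of Slc36a1 with a separate spread per group (0.0881). Among the carriers of other families, a list described further on, the lysosomal cystine exporter Ctns rose by 1.19 (SE 0.11, adjusted p = 0.00263), the lysosomal cationic amino acid exporter Slc66a1 by 0.44 (adjusted p = 0.0299) and the histidine and peptide carrier Slc15a4 by 0.81 (adjusted p = 0.0133). Its relative Slc15a3 did not pass (-0.10, adjusted p = 0.512). These 4 companions were grouped after their values were seen.

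The promoters of Slc36a1 and Slc38a7 are shown because both genes rose and both hold the E-box letters CACGTG close to the start site. Factors of the MITF, TFEB and TFE3 group, which drive lysosomal genes, and MYC with MAX bind E-boxes. The windows are the 250 bases before a RefSeq start site on GRCm38.p6, 5′ to 3′ on the gene's strand, chr11:55204090-55204339 (plus strand) for Slc36a1 and chr8:95853492-95853741 (minus strand) for Slc38a7. Capitals mark the E-box, whose first base is 31 bases before the start in Slc36a1 and 34 bases before it in Slc38a7.
Slc36a1: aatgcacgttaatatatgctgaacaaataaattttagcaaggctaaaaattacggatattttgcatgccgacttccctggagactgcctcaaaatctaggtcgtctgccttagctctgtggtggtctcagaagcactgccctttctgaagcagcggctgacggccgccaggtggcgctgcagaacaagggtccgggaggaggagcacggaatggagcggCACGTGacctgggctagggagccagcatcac
Slc38a7: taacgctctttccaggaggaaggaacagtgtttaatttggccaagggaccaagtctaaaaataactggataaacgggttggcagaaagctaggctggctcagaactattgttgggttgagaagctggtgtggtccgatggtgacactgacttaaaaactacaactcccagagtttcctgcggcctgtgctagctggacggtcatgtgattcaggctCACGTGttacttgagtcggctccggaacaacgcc
Over the 41 RefSeq promoters found for 31 of the 40 members, CACGTG occurred in 7 (17.1%), against 6.02% of all 32851 promoters of the same length. The motif reads the same on both strands, and the genes with it were Slc1a6, Slc1a7, Slc36a1, Slc38a5, Slc38a7, Slc43a1 and Slc7a14. Only Slc36a1 and Slc38a7 of these were called, and the window of Slc38a9 did not hold these letters. Mitf rose (log2 difference 1.33, SE 0.19, adjusted p = 0.00626), from 2.82, 3.24 and 2.38 CPM in WT to 6.80 and 7.39 CPM in KO, while Tfeb, Tfe3, Max and Myc did not pass the test. Mitf is also a melanocyte marker. The other 7 markers of that list summed to 3.88 to 5.02 CPM in WT, 3.96 in KO1 and 7.77 in KO2. A match of letters is a description and does not show that a factor binds.

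Slc7a1 (CAT1), the main carrier of arginine and lysine in most dividing cells, was measured at 371, 361 and 358 CPM for WT1, WT2 and WT3 and 380 and 582 CPM for KO1 and KO2. Both KO libraries exceeded WT, KO1 by little, and the log2 difference of 0.40 (SE 0.18) did not pass (adjusted p = 0.133). It was 0.67 without KO1. Slc7a3 (CAT3), a cationic carrier best known from brain, was at 47.2, 52.4 and 47.9 CPM in WT, at 7.29 CPM in KO1 and at 48.0 CPM in KO2. KO1 stood far below all other libraries and KO2 lay within WT. The fitted difference of -0.83 (SE 0.71) did not pass (adjusted p = 0.385) and was -2.74 without KO2. Slc7a2 (CAT2) was not tested and reached at most 0.2 TPM. Slc7a4, an orphan relative, had 29 counts in WT and 40 in KO and just missed the threshold (1.04, SE 0.33, adjusted p = 0.0554).

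Neither exchanger of cationic against neutral amino acids passed the test. Slc7a6 (y+LAT2) was measured at 46.9, 43.1 and 44.4 CPM in WT and at 48.1 and 49.6 CPM in KO, a difference of 0.12 (SE 0.07, adjusted p = 0.228). Both KO libraries were above WT by a margin smaller than the range of WT. Its relative Slc7a7 (y+LAT1) was at 0.776 to 0.925 CPM in WT and 0.783 and 1.40 CPM in KO (0.37, SE 0.34, adjusted p = 0.416). Slc7a6os, the neighbour that shares a locus with Slc7a6 but is no transporter, was at 27.4, 26.8 and 28.5 CPM in WT and 19.6 and 24.4 CPM in KO. It lay below WT in both KO libraries and did not pass (-0.32, SE 0.12, adjusted p = 0.079), and the difference was -0.48 without KO2.

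Slc7a11 (xCT), which imports cystine for glutathione synthesis in exchange for glutamate, was measured at 47.3, 51.2 and 45.9 CPM in WT1, WT2 and WT3, at 12.0 CPM in KO1 and at 51.3 CPM in KO2. KO1 stood far below the others, and KO2 was level with the highest WT library. The fitted difference was -0.61 (SE 0.56, adjusted p = 0.422), and it was -1.99 without KO2 and 0.08 without KO1. Its promoter is shown because ATF4 and its partners of the C/EBP family are known to drive this gene through composite elements. The window is the 250 bases before a RefSeq start site on GRCm38.p6, chr3:50443614-50443863 (minus strand), 5′ to 3′ on the gene's strand. Capitals mark the letters TGATGNAAN, searched on both strands, which occur on the gene's strand beginning 66 bases before the start and on the other strand beginning 48 bases before it.
Slc7a11: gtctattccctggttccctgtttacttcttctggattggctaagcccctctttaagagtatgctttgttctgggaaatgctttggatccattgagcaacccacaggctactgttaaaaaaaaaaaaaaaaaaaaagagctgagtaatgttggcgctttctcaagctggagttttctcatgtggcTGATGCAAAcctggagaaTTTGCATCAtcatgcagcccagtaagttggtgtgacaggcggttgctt
These letters occurred in 3 of the 41 member promoters (7.32%), namely that of Slc7a11 and a pair of start sites of Slc7a7, and in 3.44% of all promoters. The antioxidant response element TGACNNNGC was present in 9.76% of the member promoters and 10.2% of all, and the AP-1 letters TGANTCA in 9.76% and 6.75%. No promoter in the RefSeq table was matched to Slc1a5, Slc38a1, Slc38a3, Slc43a3, Slc7a2, Slc7a3, Slc7a4, Slc7a5 or Slc7a13.

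The small neutral exchangers of the Slc1 family did not pass the test over all libraries. Slc1a4 (ASCT1), a carrier of serine, alanine and cysteine, was measured at 53.3, 57.2 and 55.1 CPM in WT1, WT2 and WT3, while KO1 and KO2 had 53.7 and 129 CPM. Only KO2 left the WT range, and the difference of 0.72 (SE 0.35) did not pass (adjusted p = 0.148). It was 1.21 without KO1. Slc1a5 (ASCT2), the glutamine exchanger of many proliferating cells, was at 45.2, 48.9 and 44.7 CPM in WT and 22.6 and 39.2 CPM in KO. Both KO libraries were below WT, KO1 by far the more, and the difference of -0.58 (SE 0.23) did not pass (adjusted p = 0.0996). It was -0.25 without KO1 and -1.02 without KO2. Slc7a10 (Asc-1) was not tested and reached at most 0.07 TPM.

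Of the glutamate carriers, Slc1a1 (EAAT3), which also takes up cysteine, was lower in KO. It was measured at 10.7, 13.9 and 9.56 CPM in WT and at 5.28 and 7.49 CPM in KO, with no overlap and a log2 difference of -0.83 (SE 0.24, adjusted p = 0.0414). Without WT1, WT2 or WT3 the adjusted p was 0.0749 to 0.12. Slc1a1 passed in 11 of 16 alternatives, failing also with a separate spread per group and a block by replicate number. Slc1a3 (EAAT1) was at 4.85 to 5.27 CPM in WT and at 5.82 and 13.8 CPM in KO. Both KO values were above WT, and the difference of 0.95 (SE 0.36) did not pass (adjusted p = 0.0865) but did with DESeq2 (0.0473). The difference was 1.43 without KO1. Slc1a2 (EAAT2), the main glutamate carrier of astrocytes, had 48 counts in WT and 5 in KO (ratio WT to KO 6.37, 95% counting interval 2.56 to 20.6) and did not pass (-2.58, SE 0.87, adjusted p = 0.0629). It passed with DESeq2 (adjusted p = 0.0394) and with limma-voom (0.0471). Slc1a6 (EAAT4) and Slc1a7 (EAAT5), carriers of neurons and retina, stayed under 1 CPM in all libraries and did not pass (-0.61, SE 0.46, adjusted p = 0.321 and -1.07, SE 0.59, adjusted p = 0.198). Slc7a13 (AGT1) was not tested and reached at most 0.02 TPM.

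The Slc38 members whose substrates are least settled had small differences. Slc38a6 was measured at 76.1, 71.1 and 68.6 CPM across WT1, WT2 and WT3, against 95.3 and 84.8 CPM in KO1 and KO2. It rose in both KO libraries by 0.32 (SE 0.09, adjusted p = 0.0325), and without WT1, WT2 or WT3 the adjusted p was 0.0817 to 0.121. Slc38a6 passed in 11 of 16 alternatives, failing also with a separate spread per group and a block by replicate number. Slc38a10 was at 76.8, 72.5 and 66.5 CPM in WT and at 90.1 and 79.2 CPM in KO. The groups did not overlap, but the difference of 0.23 (SE 0.10) did not pass (adjusted p = 0.106). It was 0.34 without KO2. Slc43a3, the nucleobase carrier, was at 3.41, 3.68 and 3.10 CPM in WT, at 1.13 CPM in KO1 and at 12.5 CPM in KO2. Its KO libraries lay far out on both sides of WT, and the fitted KO level was 2.01-fold that of WT (SE 0.86 on the log2 scale, adjusted p = 0.384). The log2 difference was 1.87 without KO1 and -1.58 without KO2. The remaining members, Slc36a3, Slc38a8, Slc38a11 and Slc7a15, were not tested and reached at most 0.09, 0.04, 0.17 and 0.18 TPM.

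By family, both tested Slc36 members were higher, 3 of 8 tested Slc38 members were higher and 2 lower, 1 of 2 Slc43 and 1 of 2 Slc3 members were higher, and 1 of 7 Slc1 members was lower, beside 20.4% higher and 20.4% lower among all tested genes. None of the 10 tested Slc7 members, Slc7a6os included, passed the edgeR test over all 5 libraries, or DESeq2 or limma-voom, and 1 was higher and 1 lower at an unadjusted p under 0.05. The log2 ratios to the WT mean, plotted for each KO library, show the Slc7 genes spread along the KO1 to KO2 axis, with KO2 above KO1 in 8 of 10.

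**Figure D2:**
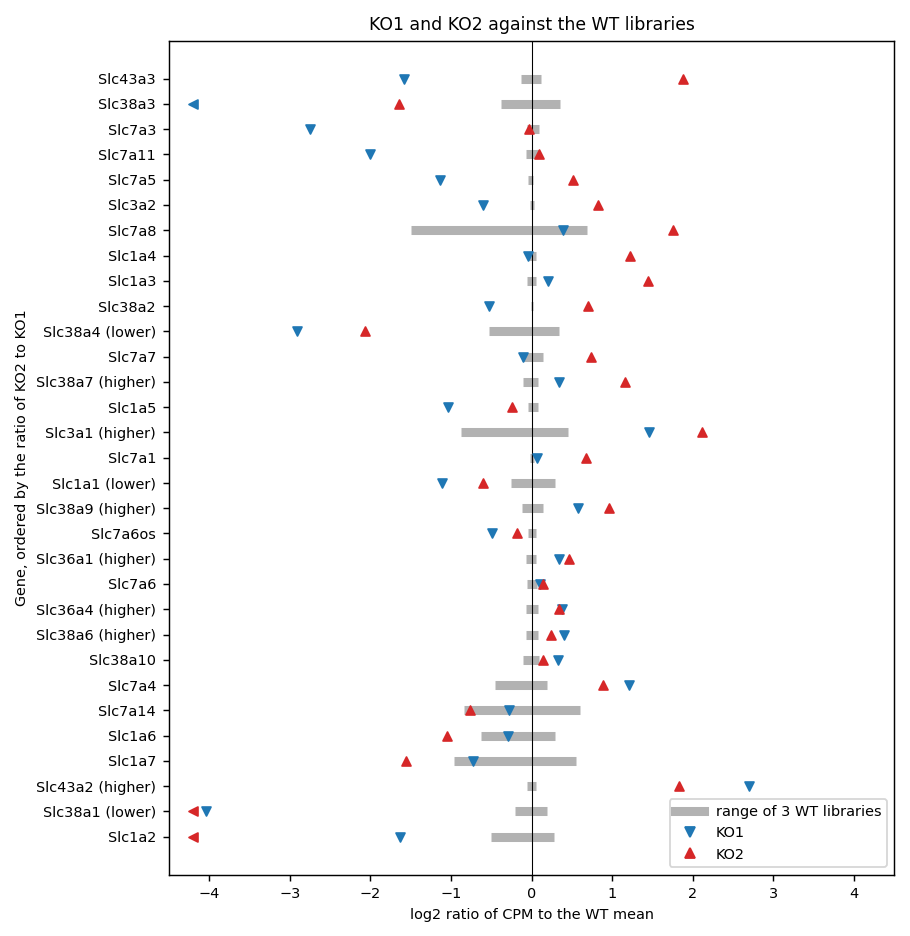
Log2 ratio of CPM to the WT mean for KO1 (blue triangles) and KO2 (red triangles) in the 31 tested members, ordered by the ratio of KO2 to KO1, with a grey bar for the range of the 3 WT libraries and arrows for values beyond the axis. Slc38a2 lies at -0.52 in KO1 and 0.69 in KO2, while Slc43a2 lies at 2.69 and 1.83.

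Levels between genes were compared on the TPM scale, with no test. Summed over all members TPM was 1358, 1402 and 1359 in WT1, WT2 and WT3, 959 in KO1 and 2089 in KO2, which is 0.698 and 1.52 times the WT mean. The 4 members with the highest WT mean, Slc38a2, Slc3a2, Slc7a5 and Slc7a1, made up 77.5 to 78.0% of this sum in WT, 74.0% in KO1 and 82.0% in KO2. The sum is thus mainly the level of these genes. Large neutral carriers together stood at 209 ± 5.33 TPM in WT (SD, n = 3), 104 in KO1 and 298 in KO2. The sodium-coupled glutamine and small neutral carriers stood at 449 ± 3.87 TPM in WT (SD, n = 3), 311 in KO1 and 713 in KO2, most of it Slc38a2. Cationic carriers were at 144 ± 2 TPM in WT (SD, n = 3), 110 in KO1 and 201 in KO2. The class of genes with unsettled substrates, mostly Slc38a6 and Slc38a10, did not take this order, with 67.2 ± 3.90 TPM in WT (SD, n = 3), 84.6 in KO1 and 75.5 in KO2.

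**Figure D3:**
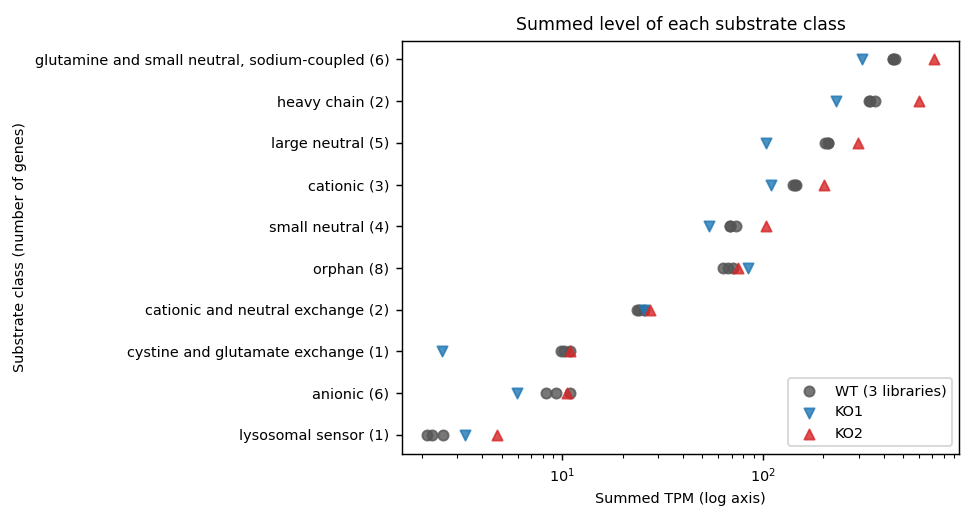
Summed TPM of each substrate class (number of genes) in each library on a log axis, with grey circles for the 3 WT libraries, blue triangles for KO1 and red triangles for KO2. In the 5 most abundant classes KO1 lies below and KO2 above all WT libraries.

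The regulators of these genes were examined from a list of 23 factors and kinases of the stress and growth responses, all of which were tested. Like the other companion lists, it was drawn up with earlier results of these data known. Among them 4 were higher and 2 lower in KO, 26.1% called beside 40.8% of all genes. Eif2ak3 (PERK), the kinase that senses unfolded protein, rose by 0.72 (SE 0.08, adjusted p = 0.00368), Mitf rose by 1.33, and Trp53 fell by 0.49 (SE 0.07, adjusted p = 0.00639). Without each library in turn, 3 to 11 were higher and 1 to 9 lower. Over all tested genes such counts also changed widely, as given at the end. These ranges, here and for the lists below, are therefore no result about the lists. Atf4, the factor downstream of PERK, did not pass (-0.18, SE 0.21, adjusted p = 0.536). Its mRNA was measured at 539, 577 and 559 CPM in WT1, WT2 and WT3, at 374 CPM in KO1 and at 613 CPM in KO2. This order of the libraries was that of Slc3a2, Slc7a5 and Slc38a2. Atf4 is controlled largely through translation, which these data do not measure. Trib3, a target of ATF4, was at 91.8, 103 and 108 CPM in WT, 31.5 CPM in KO1 and 232 CPM in KO2. Targets of ATF4 were not examined as a set. Amino acid synthesis enzymes from lists below differed in this. Asns, Psat1 and Phgdh lay below WT in both KO libraries, with KO1 the lower. Others, such as Pycr1, Aldh18a1 and Gpt2, had KO1 below and KO2 above all WT libraries. In all, 6 of the 23 regulators (Atf4, Atf5, Cebpb, Cebpg, Myc and Trib3) had KO1 below and KO2 above all WT libraries, 26.1% against the 6.58% of all genes given above. Atf4, Trib3 and the other genes named for this order were chosen after their values were seen.

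Carriers of other families (30 in the table, 19 tested) had 5 genes higher and 2 lower in KO, 36.8% called. The smallest p-values were those of Ctns, the taurine carrier Slc6a6, which rose by 0.78 (SE 0.11, adjusted p = 0.00668), and the mitochondrial aspartate and glutamate carrier Slc25a13, which fell by 0.50 (SE 0.09, adjusted p = 0.0097). Of these 19 genes, 5 had KO1 below and KO2 above WT, among them the glycine carrier Slc6a9 (72.6 to 85.5 CPM in WT, 56.5 in KO1 and 299 in KO2), and 2, Slc15a2 and Slc25a12, had the opposite order. Leaving out single libraries gave 2 to 8 higher and 0 to 5 lower genes. The genes by which mTORC1 senses amino acids (38 tested) had 8 higher and 6 lower members, a called share of 36.8% near the 40.8% of all genes, and no called gene with a log2 difference above 0.57 in size. Wdr59, of the GATOR2 complex, rose by 0.57 (SE 0.11, adjusted p = 0.0148), and the GTPase Rraga fell by 0.44 (SE 0.09, adjusted p = 0.0143). By edgeR no gene of this list passed with WT1, WT2 or WT3 left out (6 to 8 higher and 5 lower at an unadjusted p under 0.05).

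Enzymes that use the carried amino acids were read from further lists, also drawn up with earlier results of these data known. Their shares beside those of all genes are therefore descriptions only. Of 13 tested enzymes of glutamine and glutamate, 2 were higher and 8 lower in KO, a called share of 76.9% against the 40.8% of all genes. Glul, which makes glutamine from glutamate, was measured at 4.77, 5.27 and 4.32 CPM for WT1, WT2 and WT3 and 18.2 and 17.9 CPM for KO1 and KO2. The KO libraries were alike and far above WT, with a log2 difference of 1.91 (SE 0.13, adjusted p = 0.00165). Gls2, a mitochondrial glutaminase, which breaks glutamine down, was at 23.8, 21.3 and 21.8 CPM in WT and 12.9 and 12.4 CPM in KO (-0.82, SE 0.10, adjusted p = 0.00414). It was below WT in both KO libraries. Ppat, the first enzyme of purine synthesis and a user of glutamine, fell by 1.23 (SE 0.16, adjusted p = 0.0049), and Cad, Gfpt2, Glud1, Got2 and Asns were lower too, while Gpt was higher. The counts were 2 to 5 higher and 3 to 11 lower with each library left out, the lowest of them without WT1.

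Of 11 enzymes of serine, glycine and one-carbon metabolism, 6 were lower (54.5%, beside 20.4% of all genes) and none higher in KO by edgeR over all libraries. None was higher by DESeq2 or limma-voom either, and 1 was at an unadjusted p under 0.05 in edgeR. Mthfd1, a cytosolic folate enzyme, fell by 1.17 (SE 0.08, adjusted p = 0.00186), Gcsh, of the glycine cleavage system, by 0.54 (SE 0.07, adjusted p = 0.00566) and Psat1, of serine synthesis, by 0.75 (SE 0.19, adjusted p = 0.0288). Phgdh, Shmt2 and Mthfd1l were lower as well, each with KO1 below KO2. The lower count was 2 without WT1, WT2 or WT3, 8 without KO1 and 9 without KO2. Enzymes of arginine, proline and polyamines (16 tested) had 3 lower (18.8%) and no higher members by edgeR. None was higher by DESeq2 or limma-voom, and 1 was higher at an unadjusted p under 0.05 in edgeR. The largest fall by level was that of Odc1, the first enzyme of polyamine synthesis, from 1703, 1590 and 1578 CPM in WT to 70.5 and 307 CPM in KO (-3.11, SE 0.65, adjusted p = 0.017). Arg2, a mitochondrial arginase under 1 CPM, fell by 3.22 (SE 0.47, adjusted p = 0.00665). That list had 1 lower gene without WT1, WT2 or WT3, 6 lower and 3 higher without KO1, and 8 lower and 2 higher without KO2.

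Enzymes of branched chain amino acids (13 tested), which degrade the substrates of LAT1 and LAT4, had 2 higher and 1 lower member (23.1% called). Bckdha, a subunit of the dehydrogenase that commits them to oxidation, rose by 1.18 (SE 0.18, adjusted p = 0.00734) and Bcat2, the mitochondrial aminotransferase, by 1.56 (SE 0.38, adjusted p = 0.0266), while Dld, shared by several dehydrogenases, fell by 0.43 (SE 0.08, adjusted p = 0.012). With single libraries left out, 1 to 6 were higher and 0 to 3 lower. Of 9 tested enzymes of cysteine and glutathione, Csad, of taurine synthesis, rose by 1.76 (SE 0.13, adjusted p = 0.00186) and Cbs, of cysteine synthesis, by 0.72 (SE 0.20, adjusted p = 0.0371). The next by p, the glutathione enzyme subunit Gclc, did not pass (-0.27, SE 0.11, adjusted p = 0.0995), and with single libraries left out 1 to 3 were higher and 0 to 3 lower. Over the companion lists together, 51 of 142 tested genes were called (35.9%, below the 40.8% of all tested genes), 23 higher and 28 lower. The median log2 difference was -0.46 for the enzymes of glutamine and glutamate, -0.62 for those of serine, glycine and one carbon, -0.23 for those of arginine, proline and polyamines, 0.25 for branched chain amino acids and -0.11 for cysteine and glutathione. It was 0.20 for the other carriers, -0.06 for the sensing genes and 0.14 for the regulators, beside 0.02 for all tested genes.

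**Figure D4:**
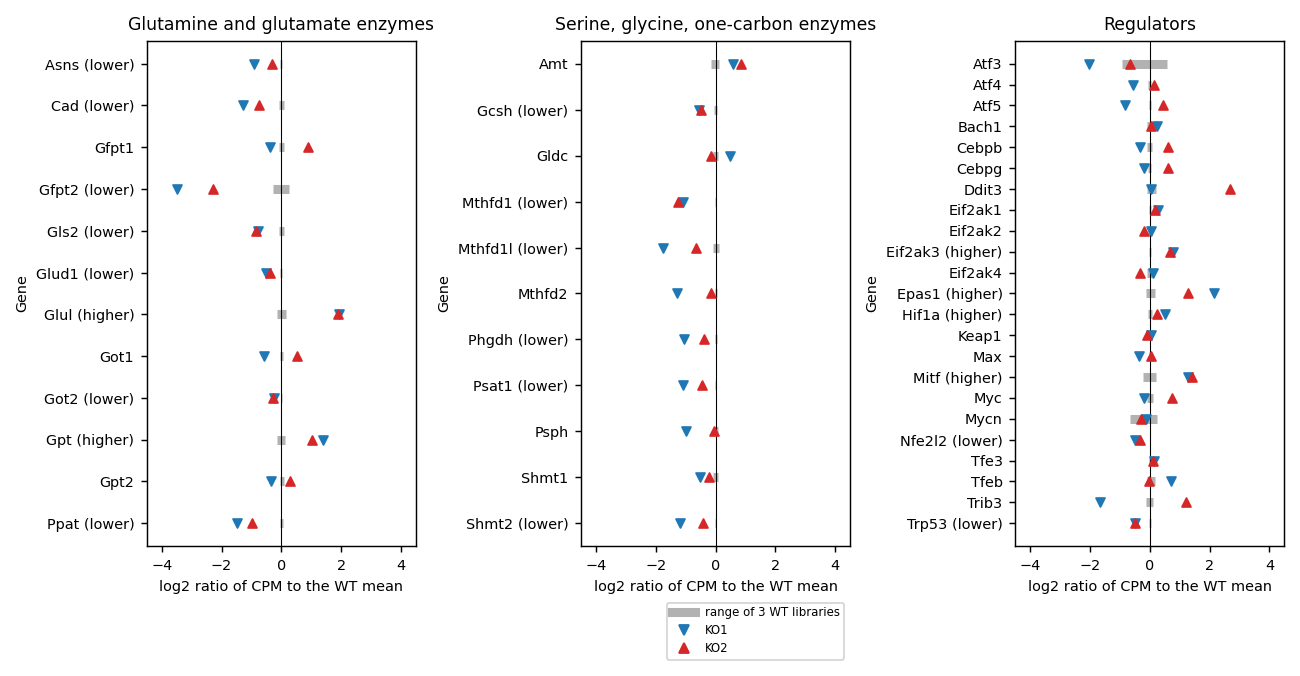
Log2 ratio of CPM to the WT mean for KO1 (blue triangles) and KO2 (red triangles) in tested enzymes of glutamine and glutamate, enzymes of serine, glycine and one carbon, and regulators, with a grey bar for the range of the 3 WT libraries and the call in brackets. Glul lies at 18.2 and 17.9 CPM against 4.32 to 5.27 CPM in WT, and Atf4 and Trib3 have KO1 and KO2 on opposite sides of WT.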

How the data were processed

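The deposited table gives, per the file headers, expected counts, TPM and FPKM per gene for 3 WT and 2 KO libraries. Expected counts were estimated by the authors with RSEM 1.3.1 on GRCm38.p6, per the submitters' processing notes. RSEM divides reads shared by genes, so 32.1 to 34.0% of values per library were not whole. The deposited TPM values are scaled by length and within each library, per the file headers. For the aligner and strand setting, nothing is given in the sources used here. FPKM was not used.

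Expected counts were rounded and tested with edgeR 4.0.16 in R 4.3.3: filterByExpr by group, TMM factors, the two-sided quasi-likelihood test of KO against WT over all 12957 tested genes, no covariate, Benjamini-Hochberg adjustment and a threshold of 0.05. CPM uses TMM-scaled library totals, and the standard error is the log2 difference divided by the root of the F statistic. The test was checked on simulated counts with the same spread in both groups, so the unequal spread of WT and KO was not covered. Counting intervals (95%) treat summed counts as binomial.

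Members and companion lists were chosen with earlier results of these data known. All members are named, with values per library for those called or with a group mean of at least 20 TPM, and from each companion list the 3 tested genes with the smallest p. Some genes that this rule takes are not reported here. Further companion genes, marked above or named as called, were chosen after their values were seen, as were the promoters shown. Alternatives were scaling by total counts or by DESeq2 size factors, the tests of DESeq2 1.42.0 and limma-voom (limma 3.58.1), the latter also with a separate spread per group, a fit without the count filter or with a group mean of 10 and an overall mean of 50 counts, a block by replicate number, leaving out single libraries, and limma on log2(TPM + 1), with or without a mean TPM of 1, and on log2(TPM + 0.1).

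Coordinates are those of the deposited table. Its strand differed from GENCODE release 21 of the same build for 6 members, and strands given are those of GENCODE. Of the 40 members 17, and of the 10 called members 5 (Slc1a1, Slc3a1, Slc38a6, Slc38a9 and Slc43a2), overlap another GENCODE gene. Promoters are from RefSeq, GRCm38.p6. The group of each library came from its title. Chi-square per degree of freedom was 3.53 to 6.46 between WT libraries and 109 between the KO libraries, above counting noise, so each library counted as 1 sample. The first principal component held 72.8% of the variance and the second 18.7%.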

Additional observations from a re-analysis of the deposited data

How the results depend on the processing

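Scaling by DESeq2 size factors or total counts left 7 higher and 3 lower members. DESeq2, limma-voom, log2(TPM + 1) and log2(TPM + 0.1) each gave 5 lower, log2(TPM + 1) with a mean TPM of at least 1 gave 4 higher, and a separate spread per group gave 3 higher and 1 lower. Leaving out single libraries gave 1 to 16 higher and 2 to 12 lower members. The counts were 1 and 2 without WT1, WT2 or WT3, 16 and 5 without KO1, and 7 and 12 without KO2. Each of these fits has 1 library fewer, and without KO1 or KO2 the lone KO library is assumed to vary like WT. The cause of the difference between these counts was not tested. Over all tested genes 2638 were higher and 2648 lower, and a separate spread per group gave 1625 and 1567. Single libraries left out gave 980 to 3975 higher and 977 to 4093 lower, the fewest without WT1 and the most without KO2. The replicate block, which pairs WT1 with KO1 and WT2 with KO2, gave 1 higher and 2 lower members and 797 and 783 of all genes. Deviations of same-numbered samples from their group means were hardly correlated (r = 0.00714 and 0.0676). With 2 KO libraries the KO deviations mirror each other, so this check cannot exclude that same-numbered samples were prepared together.

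The log2 difference changed sign without KO1 in Slc7a11 (0.08) and Slc7a5 (0.50), and without KO2 in Slc1a4 (-0.03), Slc38a2 (-0.51), Slc3a2 (-0.59), Slc43a3 (-1.58) and Slc7a7 (-0.09). The lowest and highest values with 1 library left out were -1.99 and 0.08 for Slc7a11, -1.13 and 0.50 for Slc7a5, -0.03 and 1.21 for Slc1a4, -0.51 and 0.69 for Slc38a2, -0.59 and 0.82 for Slc3a2, -1.58 and 1.87 for Slc43a3, and -0.09 and 0.72 for Slc7a7. These genes lie on both sides of WT in the KO libraries or only in KO2, and the cause was not tested. Of the 10 called members, Slc43a2 passed in 16 of 16 alternatives, Slc38a1 in 15 of 15 and Slc38a4 in 15 of 16, while the other 7 lost their call with each WT library left out and with the replicate block. Members under 1 CPM, such as Slc3a1, Slc1a2 and Slc38a3, rest on few counts.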
